A study of Brassica napus with 9 samples.

Results

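Among the transcripts of *Brassica napus* leaves that rose under drought, 41 genes lay near the level of well-watered plants when the droughted plants had also received fullerol, and these 41 genes are described here. They were selected on the expression values themselves, from 104592 genes listed for every library, of which 101040 carry a Bna identifier of the genome annotation. A gene was kept when its mean reached 1 FPKM in the well-watered plants (CK) and 5 FPKM in the droughted plants (D), and when the lowest D library lay at least 2 times above the highest CK library. These conditions left 1012 drought-raised genes, after 2 identifiers that are not reported here had been removed by name. The members are 41 of them, or 4.05%, in which at least 0.75 of the drought rise was absent in the droughted plants sprayed with fullerol (D + F). That share is the difference between D and D + F divided by the difference between D and CK, both taken between group means of log2(FPKM + 1), so that it is 0 for a gene left at its D level and 1 for a gene back at its CK level. The remaining 971 drought-raised genes serve as the comparison.

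RNA was sequenced from leaf 3 of the rapeseed cultivar Zhongshuang 11, with 3 biological replicates in each of the 3 groups and 1 library per replicate. CK plants were held at 80% of field capacity, whereas the soil of D and D + F plants had dried to 30% when leaves were taken, 25 days after sowing. From day 21 on, leaves of D + F plants were sprayed with fullerol at 100 mg/L, and those of CK and D plants with distilled water. No group received fullerol without drought, so the values cannot be compared with those of sprayed and well-watered plants. FPKM is the number of fragments on a gene scaled to its length and to a library total. The totals solved from the values were 21939148 to 26042002 read pairs. They nearly equal the sums over the listed genes, so they do not show how many sequenced pairs fell elsewhere. *HPR* (BnaA07g24840D), an enzyme of photorespiration and the marker that was used for leaf tissue, was present in every library, with 132, 127 and 75.6 FPKM in CK, 239, 251 and 275 FPKM in D, and 232, 182 and 171 FPKM in D + F. Every D + F library of *HPR* thus lay below every D library and above every CK library. Only 3 of the 41 members had all D + F libraries above all CK libraries. The part of *HPR* in the results was not tested.

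When a leaf loses water, the hormone abscisic acid accumulates, stomata close and a large set of genes is transcribed more strongly. Known members of that response encode enzymes that make compatible solutes such as proline and raffinose, antioxidant enzymes, and proteins that remodel the cell wall, to which pectin methylesterases belong. Fullerol is a carbon cage that carries hydroxyl groups, which make it soluble in water. *B. napus* joins an A and a C subgenome, and many of its genes exist as near-identical copies on both. The treatment of reads that fit several copies is not given in the sources used here, which leaves the level of any 1 copy uncertain. The files come from whole leaves, in which fewer cells of a type and less RNA per cell cannot be told apart.

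The 41 genes were mostly weak in watered leaves and moderate under drought. Their group means had a median of 2.45 FPKM in CK, 21.1 FPKM in D and 2.83 FPKM in D + F, against 6.83, 36.2 and 29.9 FPKM for the other drought-raised genes. Mean FPKM in D was 2.47 to 20.0 times that in CK, with a median of 8.002, while the median was 4.18 among the others. Measured against D + F, the mean of D was 2.58 to 27.01 times higher, with a median of 7.38. These differences describe the choice, since the rule used all 9 libraries and all 3 groups.

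Shares ran from 0.765 to 1.39 with a median of 0.945, and 18 of the 41 genes had a share above 1, meaning a D + F mean below that of CK on the log2 scale. Over the other 971 genes the share had a median of 0.169 and a range from -0.70 to 0.749, and 637 of them stayed under 0.25. The distribution over members and others was a single broad hump around these low values with a long upper tail, and no gap separated the members from their neighbours. Just inside the threshold were BnaC02g02310D, BnaA08g17100D and BnaA01g04980D, with shares of 0.765, 0.768 and 0.773. Just outside it were BnaA05g01350D, BnaC04g48490D and BnaC01g41020D, with shares of 0.749, 0.744 and 0.733. The genes on either side of the line were therefore alike in this measure.

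**Figure D1:**
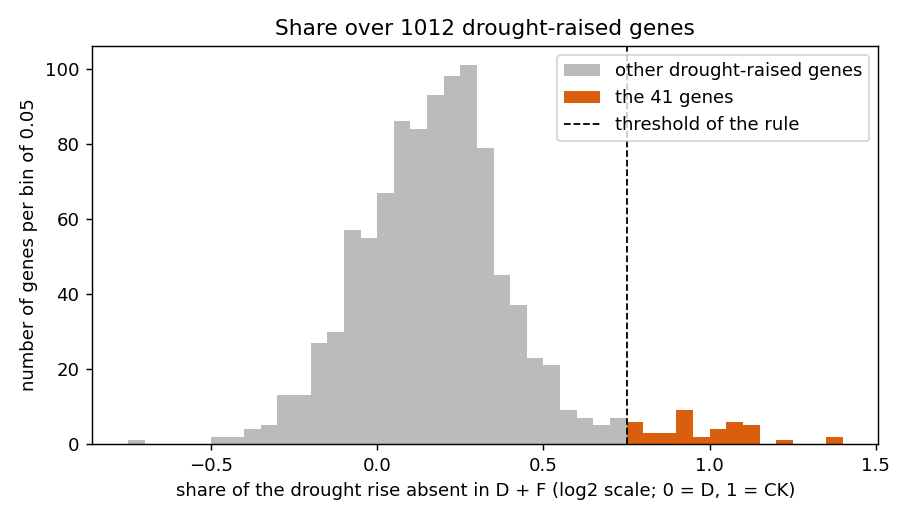
Number of genes (vertical axis) in bins of the share of the drought rise that was absent in D + F (horizontal axis, log2 scale, 0 for D and 1 for CK), for the 41 genes in orange stacked on the 971 other drought-raised genes in grey, with the threshold of 0.75 as a broken line. The others have a median of 0.169, and the 41 genes form the tail from 0.765 to 1.39.

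In each D + F library on its own, the share of the 41 genes had a median of 0.947 in D + F 1, 0.980 in D + F 2 and 1.08 in D + F 3. The same medians over the other drought-raised genes were 0.211, 0.157 and 0.116. For 38 of the 41 genes, all 3 D + F libraries had a share of at least 0.5. The exceptions were BnaC02g22410D, with 0.146 in D + F 2, BnaA01g04980D, with 0.390 in D + F 1, and BnaA07g32160D, with 0.470 in D + F 2. In all 41 genes every D + F library lay below every D library, which was so in 275 of the other 971 genes, or 28.3%. The gap between the lowest D and the highest D + F library was at least 2-fold in 30 of the 41 genes and in 30 of the 971. The ranges of D + F and CK overlapped in 38 of the 41 genes, and in 39 of the 971. The rule parted the 41 from the 971 by the share in these same libraries, so the values of this paragraph describe the choice.

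All 41 genes were above 1 FPKM in at least 3 libraries and so entered limma's test, and all passed it as higher in D than in CK, with a Benjamini-Hochberg adjusted p under 0.05, where 12.3% of the 50626 genes tested were called in that direction. Their fitted log2 differences ran from 1.03 to 3.43, with standard errors from 0.13 to 0.66. In D + F vs. D, 17 of the 41 were called lower, with limma's adjusted p between 0.00987 and 0.0386, beside 0.338% of all tested genes. All 41 had an unadjusted p under 0.05 in that comparison. In D + F vs. CK, limma's test called none of the 41, where 17.1% of all tested genes were called, and 3 of the 41 had an unadjusted p under 0.05, 2 of them higher in D + F and 1 lower. The rule used each of these contrasts, so the counts are given as descriptions and nothing is read from them. The count in D + F vs. D depended on single libraries, being 0 without D 1 or without D + F 2, 2 without D 2, and 4 without D + F 3. It was 16 without D 3 and 15 without D + F 1. Over all tested genes the number called lower fell from 171 to 2, 0, 4 and 11 without D 1, D + F 2, D 2 and D + F 3. That number was 95 without D 3 and 130 without D + F 1.

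**Figure D2:**
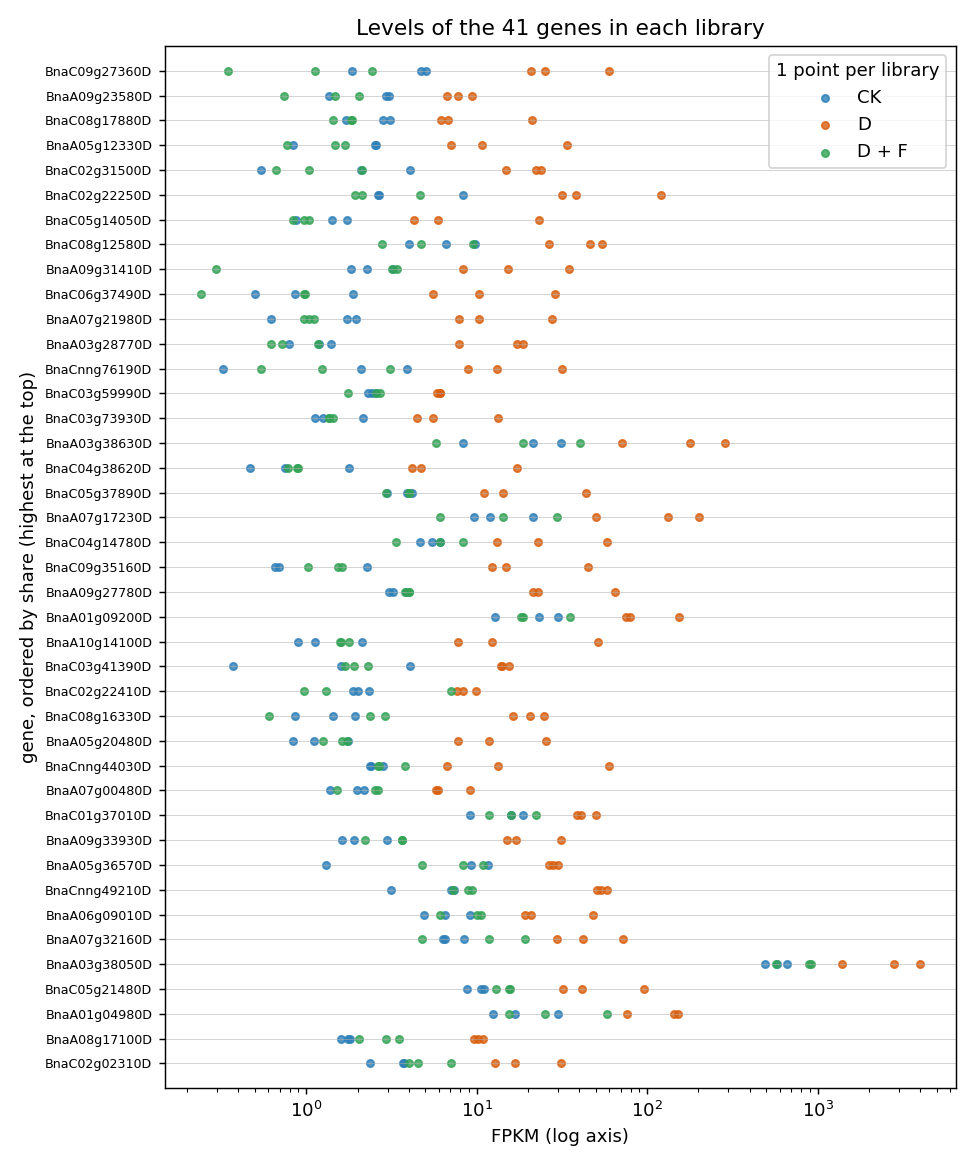
FPKM (horizontal log axis) of each of the 41 genes (vertical axis, ordered by share with the highest at the top) in the 3 CK, 3 D and 3 D + F libraries, 1 point per library. Every D point lies to the right of every CK and D + F point of the same gene, while CK and D + F points are intermixed in 38 of the 41 genes.

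Only 1 member carries a gene symbol in the study's material. This is *PME3* (BnaC01g37010D), which encodes a pectin methylesterase, an enzyme that removes methyl groups from the pectin of the cell wall. It had 15.8, 18.8 and 9.17 FPKM in CK 1 to 3, 40.96, 39.0 and 50.2 FPKM in D 1 to 3, and 22.4, 15.8 and 11.8 FPKM in D + F 1 to 3. The D libraries lay close together and above all 6 others, whereas CK and D + F ranged over the same values. The means were 14.6 ± 4.93, 43.4 ± 5.99 and 16.7 ± 5.38 FPKM (SD, n = 3 each), so that D was 2.97 times CK, and the share was 0.878. In D + F vs. D its difference of -1.36 on the log2 scale had a standard error of 0.23 and did not reach limma's threshold (adjusted p = 0.0510).

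Of the 101040 Bna genes, 25823 reached both mean levels of the rule and 1012 were drought-raised. Of 139 identifiers that the study pairs with a symbol, 23 were drought-raised by the same conditions, and *PME3* was the only one with a share of 0.75 or more, that is 1 of 23 where 4.05% of all drought-raised genes are members. The 23 shares had a median of 0.290. Proline metabolism had 6 drought-raised genes of 11, the most of any group, with shares from 0.132 to 0.705. They were copies of *P5CS1*, *P5CS2* and *P5CDH*, and the highest share was that of *P5CS2* (BnaC08g26550D). Enzymes of galactinol and raffinose metabolism, which build protective sugars, had 3 drought-raised genes with shares from 0.179 to 0.492, and the highest of these was a copy of *RFS2* (BnaA09g36810D). Of 25 genes of sucrose and starch metabolism, 5 were drought-raised, with shares from 0.128 to 0.309. The 2 drought-raised antioxidant enzymes, *GPX1* (BnaC08g33590D) and *APX1* (BnaC06g04380D), had shares of 0.391 and 0.135. One copy of *TSB1* (BnaCnng18030D), a tryptophan synthase subunit, reached 0.635. The pathway lists of the study, read as far as they were at hand, named 981 genes in the files. Of these, 85 were drought-raised, with a median share of 0.247, and 0 were members, beside 4.05% of all drought-raised genes. The highest share there, 0.733, belonged to BnaC01g41020D, which stands under amino sugar and nucleotide sugar metabolism in a D vs. CK list that was at hand only in part. The study drew up these lists on the same libraries, so they are no independent evidence, and 40 of the 41 members appear here by identifier only.

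The most abundant member was BnaA03g38050D, with 494, 657 and 575 FPKM in CK, 2788, 3962 and 1387 FPKM in D, and 573, 893 and 912 FPKM in D + F. Every D library was above every other library, but D 3 was much lower than D 1 and D 2. Group means were 575 ± 81.3, 2713 ± 1289 and 793 ± 190 FPKM (SD, n = 3), with a share of 0.792. BnaA03g38630D, which lies 58 identifier numbers further along chromosome A3, had 31.4, 21.4 and 8.35 FPKM in CK, 178, 286 and 71.6 FPKM in D, and 40.6, 18.7 and 5.75 FPKM in D + F. The profile of BnaA07g17230D was close to this, with 21.5, 9.66 and 11.95 FPKM in CK, 132, 200 and 49.99 FPKM in D, and 29.4, 14.2 and 6.13 FPKM in D + F. Both had D 2 highest and D 3 lowest within D, and both had D + F 1 highest and D + F 3 lowest within D + F, which spread over a wider range than CK. Their shares were 1.03 and 0.990.

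A second group of well-expressed members had D 1 as the lowest D library. BnaA01g04980D had 30.0, 16.8 and 12.4 FPKM in CK, 75.8, 151 and 145 FPKM in D, and 57.8, 25.1 and 15.6 FPKM in D + F. D + F 1 came near D 1 in this gene, and the lowest D library was only 1.31 times the highest D + F library. BnaA01g09200D had 29.9, 23.3 and 12.8 FPKM in CK, 75.4, 78.9 and 153 FPKM in D, and 35.3, 18.7 and 18.3 FPKM in D + F, with a share of 0.937. BnaC02g22250D had 8.31, 2.64 and 2.69 FPKM in CK, 31.8, 38.2 and 121 FPKM in D, and 4.64, 1.93 and 2.12 FPKM in D + F. This gene also had the largest rise between CK and D, by 3.43 on the log2 scale, and its D + F mean of 2.90 FPKM was below its CK mean of 4.54 FPKM. The lowest of its D libraries was 6.84 times the highest D + F library.

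The next largest rises, on the log2 scale, were 3.35 in BnaC09g35160D, 3.17 in BnaC08g16330D and 3.08 in BnaCnng49210D. BnaC09g35160D had 2.26, 0.694 and 0.657 FPKM in CK, 12.3, 14.9 and 45.1 FPKM in D, and 1.62, 1.03 and 1.53 FPKM in D + F, so that the mean of D was 20.0 times that of CK. For BnaC08g16330D the values were 1.94, 1.43 and 0.862 FPKM in CK, 24.9, 20.4 and 16.3 FPKM in D, and 2.88, 2.37 and 0.608 FPKM in D + F. Its D libraries lay 8.43-fold or more above CK, the widest such gap among the 41 genes. BnaCnng49210D, which is not placed on a chromosome, was the steadiest of them, with 7.06, 7.38 and 3.13 FPKM in CK, 50.7, 58.0 and 53.9 FPKM in D, and 7.31, 8.88 and 9.37 FPKM in D + F. The D + F mean of 8.52 ± 1.08 FPKM stayed above the CK mean of 5.86 ± 2.36 FPKM, although the ranges met, and the share was 0.826. In D + F vs. D, the difference of this gene had an adjusted p of 0.00987 in limma's test.

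The highest shares belonged to BnaC09g27360D (1.39), BnaA09g23580D (1.36), BnaC08g17880D (1.23) and BnaA05g12330D (1.14). BnaC09g27360D had 5.04, 4.71 and 1.86 FPKM in CK, 20.9, 25.0 and 59.8 FPKM in D, and 2.45, 0.348 and 1.12 FPKM in D + F. D + F was the lowest group on average, but its highest library lay above the lowest CK library, and no difference between D + F and CK was called (limma's adjusted p = 0.106). BnaA09g23580D had 2.95, 3.05 and 1.35 FPKM in CK, 6.66, 7.74 and 9.36 FPKM in D, and 2.04, 0.744 and 1.47 FPKM in D + F. BnaC08g17880D had 2.84, 3.09 and 1.70 FPKM in CK, 6.18, 6.83 and 21.0 FPKM in D, and 1.84, 1.44 and 1.84 FPKM in D + F. For BnaA05g12330D, 2.55, 2.54 and 0.840 FPKM in CK and 10.8, 7.06 and 33.7 FPKM in D stood against 1.47, 0.772 and 1.68 FPKM in D + F. None of the 41 genes had all 3 D + F libraries below all CK libraries, so a share above 1 was in every case within the overlap of both groups.

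At the other end, 3 of the 41 genes had every D + F library above every CK library. BnaA08g17100D was one of them, with 1.59, 1.80 and 1.76 FPKM in CK, 9.64, 10.9 and 10.2 FPKM in D, and 2.05, 3.505 and 2.93 FPKM in D + F. BnaC02g02310D, with the lowest share, had 3.69, 2.38 and 3.74 FPKM in CK, 12.8, 16.7 and 31.2 FPKM in D, and 4.50, 7.09 and 4.03 FPKM in D + F. In BnaC05g21480D, named after its values were seen, CK had 11.0, 8.80 and 10.6 FPKM, D had 41.7, 32.3 and 95.2 FPKM, and D + F had 13.0, 15.6 and 15.5 FPKM.

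The rise of the members was spread unevenly over the 3 D libraries. The highest D library was 1.04 to 8.85 times the lowest, with a median of 2.86, against a median of 1.40 over the other 971 genes. D 3 was at least 2 times both D 1 and D 2 in 20 of the 41 genes, or 48.8%. The same held for 17 of the other 971, or 1.75%, and for 337 of all 26160 Bna genes with a mean of at least 5 FPKM in D, or 1.29%. D 3 was at most 0.5 times both other D libraries in 4 further members and in 2 of the 971. Only 8 members had D libraries within 1.5 times of each other, against 592 of the 971, or 61.0%. These classes were set after the values had been seen, and the rule used the same D libraries, so no test is given.

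**Figure D3:**
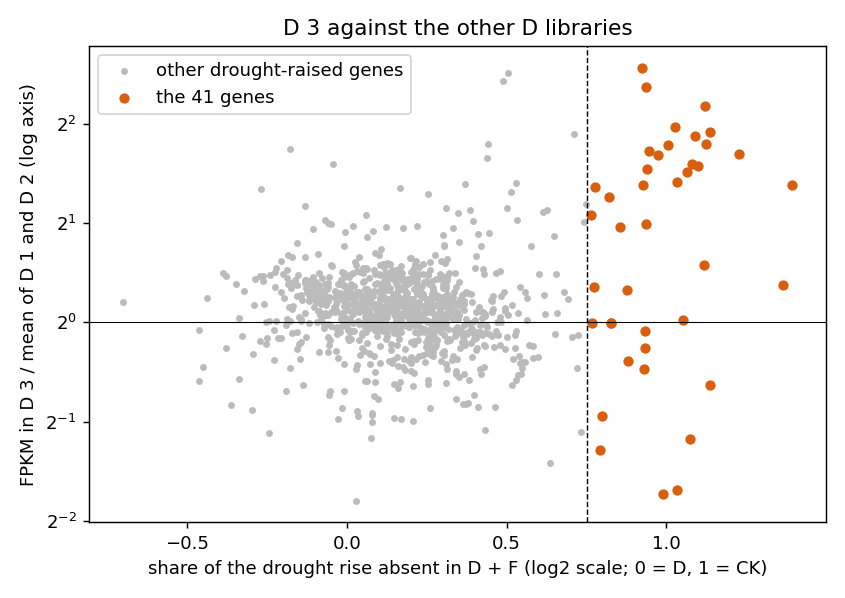
FPKM in D 3 divided by the mean of D 1 and D 2 (vertical log axis) against the share of the drought rise absent in D + F (horizontal axis, log2 scale), 1 point per gene, with the 41 genes in orange and the 971 other drought-raised genes in grey. The orange points have a median ratio of 2.12 and spread over the whole height, whereas the grey points have a median of 1.1 and gather around 1.

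In depth D 3 did not stand apart, with a total of 23339141 read pairs beside 23674820 in D 1 and 23028101 in D 2. The part that the D 3 plants or their library had in these profiles was not tested. When the rule was applied without D 3, 38 of the 41 genes were still chosen, among 54 in all.

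D 3 was the highest D library in 26 of the 41 genes, among them the 20 with D 3 at least 2 times both others. Of these 20 genes, 12 had a share above 1, and the median share of the 20 was 1.03. The most uneven was BnaCnng44030D, named after its values were seen, with 2.37, 2.41 and 2.82 FPKM in CK, 13.4, 6.73 and 59.6 FPKM in D, and 2.66, 2.64 and 3.82 FPKM in D + F. CK and D + F were tight in this gene while D 3 was 8.85 times D 2. A like profile was seen in BnaA10g14100D, with 12.2, 7.75 and 51.7 FPKM in D against 0.891 to 2.14 FPKM in CK and 1.58 to 1.79 FPKM in D + F. BnaA09g27780D had 21.4, 23.0 and 64.6 FPKM in D, and its D + F libraries, at 3.80 to 4.01 FPKM, all lay close to the CK range of 3.07 to 3.85 FPKM. Even in D 1 and D 2 alone these 3 genes were above all CK and D + F libraries. Across the 20 genes the lowest D library was 1.58 times or more above the highest D + F library, with a median of 4.17 times, and limma called 6 of them in D + F vs. D.

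D 3 was the lowest D library in 10 of the 41 genes, and in 4 of these it was at most 0.5 times both others. These 4 were BnaA03g38050D, BnaA03g38630D, BnaA07g17230D and BnaA03g28770D, all on the A subgenome and 3 of them on chromosome A3. The first 3 are among the 6 most abundant members. BnaA03g28770D was weaker, with 1.40, 0.798 and 1.19 FPKM in CK, 17.2, 18.6 and 7.90 FPKM in D, and 0.622, 1.18 and 0.722 FPKM in D + F. Among the 4, only BnaA03g28770D was called in D + F vs. D, with limma's adjusted p of 0.0187.

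Libraries of the other groups differed as well. CK 3 was the lowest CK library in 22 of the 41 genes, or 53.7%, and in 37.7% of the other drought-raised genes, and D + F 3 was the lowest D + F library in 19 of the 41, or 46.3%, and in 26.6% of the others. The leaf marker *HPR* was also lowest in CK 3 within CK, at 75.6 FPKM, and in D + F 3 within D + F, at 171 FPKM. The part of these libraries in the shares was not tested.

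**Figure D4:**
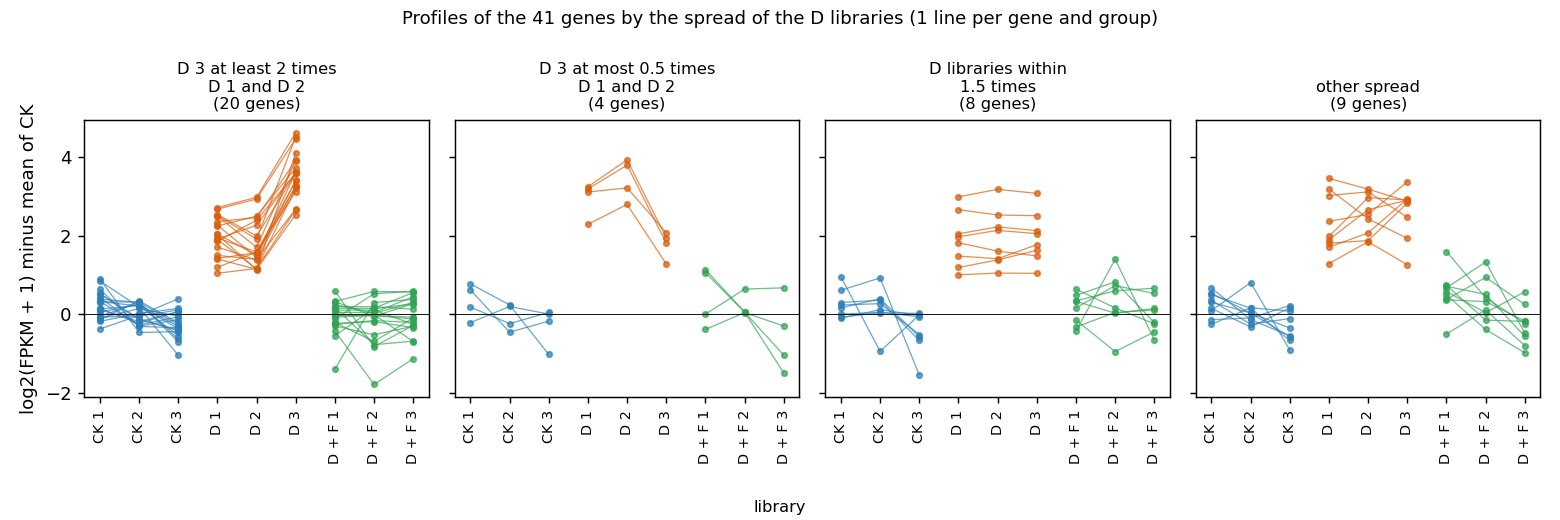
log2(FPKM + 1) of the 41 genes minus the mean of CK (vertical axis) in each of the 9 libraries (horizontal axis), in 4 panels by the spread of the D libraries. Points are libraries, lines only join the values of 1 gene within a group, and CK, D and D + F are blue, orange and green. The panels hold 20, 4, 8 and 9 genes, and in each of them D lies highest and D + F lies around the CK level of 0.

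Of the 8 genes with even D libraries, limma called 6 in D + F vs. D. The spread of the D libraries enters limma's standard error, so the sorting favours such calls and nothing is read from this count. Besides *PME3*, BnaCnng49210D, BnaA09g23580D and BnaA08g17100D, the 8 genes were BnaC03g59990D, BnaC03g41390D, BnaC02g22410D and BnaA05g36570D, named after their values were seen. BnaC03g59990D varied least, with 5.88, 6.10 and 6.06 FPKM in D, 2.45, 2.56 and 2.29 FPKM in CK, and 1.75, 2.55 and 2.70 FPKM in D + F. Its means were 6.01 ± 0.116 FPKM in D, 2.43 ± 0.135 FPKM in CK and 2.33 ± 0.512 FPKM in D + F (SD, n = 3). BnaA05g36570D had 26.6, 30.1 and 28.2 FPKM in D and 8.35, 10.8 and 4.80 FPKM in D + F, but its CK libraries ranged from 1.30 to 11.7 FPKM. BnaC03g41390D, whose solved length of 114 bases was the shortest of the 41, had 13.9 to 15.6 FPKM in D on 37 to 42 read pairs, and 5 or 6 read pairs in each D + F library. BnaC02g22410D had 9.86, 8.36 and 7.62 FPKM in D, 1.88 to 2.34 FPKM in CK, and 1.30, 7.11 and 0.970 FPKM in D + F, so that D + F 2 kept nearly the level of D.

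Depth limited the weakest of these values. The D + F library with the fewest read pairs held a median of 25 over the 41 genes and 3 at the lowest, in BnaA09g31410D and BnaC06g37490D, and in CK the median was 24 and the lowest 1, in BnaC03g41390D. In D, no member had fewer than 37 read pairs in any library. In no member were all libraries of a group at 3 read pairs or fewer.

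The rule did not use the position or the length of a gene. The A subgenome held 19 members and the C subgenome 22, that is 46.3% on A, where 44.0% of all Bna genes and 50.1% of the other drought-raised genes carry an A identifier. Chromosomes A7, A9 and C2 had 4 members each, 3 members were not placed, and the rest were spread over 13 further chromosomes. No members had neighbouring numbers. The nearest on 1 chromosome were BnaC02g22250D and BnaC02g22410D, 16 numbers apart, whose D profiles differed, since D 3 was the highest D library in the first and the lowest in the second. Members had a median length of 630 bases, from 114 to 2613, and the other drought-raised genes a median of 762 bases. BnaA08g17100D and BnaC03g59990D shared a length of 1731 bases and even D libraries, but whether they are copies of 1 gene was not examined. Among the 3552 loci without a Bna identifier, 38 were drought-raised by the same conditions and 0 of these reached a share of 0.75.

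Since every library had a part in choosing the 41 genes, the share was also measured in libraries that a choice did not use. Replicate i of each group was set aside, the rule was applied to the other 6 libraries, and the share of the chosen genes was read from the 3 libraries set aside. Without replicate 1, 80 genes were chosen, 31 of them among the 41, and their median share in CK 1, D 1 and D + F 1 was 0.972. Without replicate 2, 87 genes were chosen, 40 of them among the 41, and their median share was 0.880. Without replicate 3, 65 genes were chosen, 35 of them among the 41, with a median share of 0.873. The mean of these medians was 0.908 ± 0.0551 (SD, n = 3), while the other drought-raised genes of the same choices had 0.0389, 0.0742 and 0.123, with a mean of 0.0787 ± 0.0424. The choices overlap in their libraries, so the values have no test. Many chosen genes were not among the 41, so the values describe genes that the rule chose on 6 libraries and not the 41 as such.

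**Figure D5:**
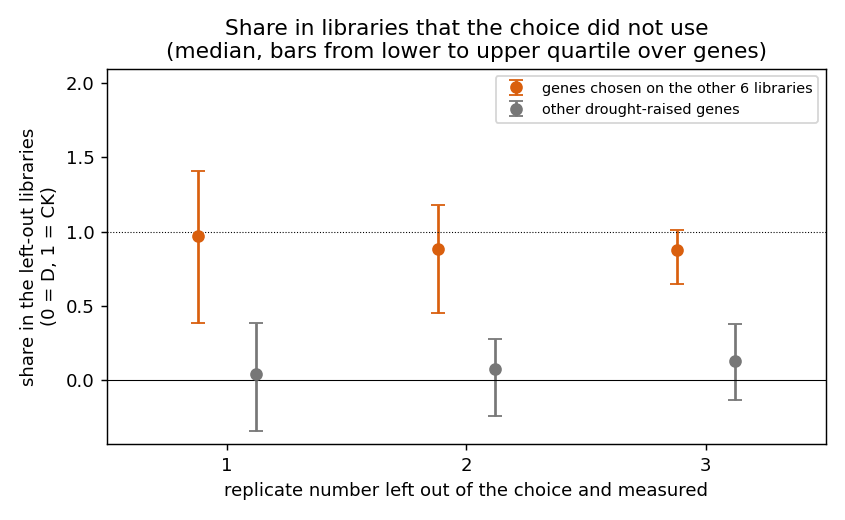
Share of the drought rise absent in D + F, measured in the 3 libraries of the replicate number left out of the choice (horizontal axis), for the genes chosen on the other 6 libraries in orange and the other drought-raised genes in grey. Points are medians over genes and bars run from the lower to the upper quartile over genes, and the orange medians of 0.972, 0.880 and 0.873 lie above the grey ones of 0.0389, 0.0742 and 0.123.

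Single genes varied around these medians. In the libraries set aside, D + F was below D in 82.5%, 94.3% and 93.8% of the chosen genes, against 49.8%, 57.2% and 61.1% of the others. D was above CK in 83.8%, 85.1% and 98.5% of the chosen genes, and in 96.4%, 99.1% and 96.7% of the others, so some chosen genes did not show the drought rise in the replicate left out. D above CK together with a share of at least 0.5 was found in 62.5%, 69.0% and 81.5% of the chosen genes and in 12.6%, 7.78% and 13.9% of the others. A further 6, 2 and 0 chosen genes had a share of that size with D below CK and D + F above D, which is no drought rise, and such genes remain in the medians above. The median rise of the chosen genes between CK and D was 1.05, 1.26 and 2.60 on the log2 scale in replicates 1, 2 and 3, and the largest of these values came from the comparison that rests on D 3. Both differences in a share use the same D library, so an error in that library enters both. A gene without a drought rise in the libraries set aside can therefore still have a share well above 0. The medians of chosen and other genes are for this reason not compared on equal terms, and no conclusion is drawn from their difference.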

How the data were processed

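Per the paper, the authors discarded reads of low quality or with adapter or poly-N sequence, mapped the pairs with TopHat (2.0.12, index by Bowtie 2.2.3) and counted them per gene with HTSeq (0.6.1). The deposited files hold FPKM, 1 file per library. Members and gene lists were chosen with earlier results of these data known. L was log2(FPKM + 1), which understates the change of weak genes, and no further scaling was applied. Read pairs and lengths were solved from the digits of the FPKM, with 99.998% of values whole within 0.001 reads. limma (3.58.1, R 4.3.3) with trend was fitted to L of each pair of groups, over 50626 genes above 1 FPKM in at least 3 of 9 libraries, with Benjamini-Hochberg adjustment over all of them, and tested on simulated data. Its p-values set the difference of group means against the spread between these libraries, and for the members they follow a choice on the same contrasts. Named genes were members with a symbol or pathway entry, the 6 highest in D, the 4 largest rises, the 4 largest shares, the 3 on either side of the threshold and any neighbouring pairs, and further names are marked. Alternatives were a pseudocount of 0.1, median-of-ratios scaling, other thresholds, no filter, all libraries fitted together, a replicate block and leaving out libraries. Figures were drawn with matplotlib (3.10.9) in Python (3.11.15).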

Additional observations from a re-analysis of the deposited data

How the results depend on the processing

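The number of members was 41. It became 90 with a share of at least 0.5 and 17 when the lowest D library had to be 3 times the highest CK library. It stayed within 1.5 times under a pseudocount of 0.1 (39 genes), median-of-ratios scaling (54 genes, with all 41 among them), a share of at least 0.9 (29 genes), a mean of at least 1 FPKM in D (42 genes) and, over single libraries left out, at 38 to 61 genes, which kept between 32 (without CK 1) and 41 of the members. The mean share in libraries set aside, 0.908, was 0.850 over all 27 combinations of 1 library of each group, which ranged from 0.633 to 1.12, and 0.871 with median-of-ratios scaling, where the other drought-raised genes had 0.164. Median-of-ratios scaling also moved the median log2 difference of all tested genes in D + F vs. D from 0.14 to 0.01.

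Of the limma counts of members, 17 in D + F vs. D was the least stable, with 2 without the filter on low values, 26 in 1 fit on all 9 libraries, 18 with median-of-ratios scaling, and 0 to 16 when single libraries were left out. Of all tested genes, 171 were called lower in that comparison, and 7, 217, 222 and 0 to 130 in these settings. In D + F vs. CK, 0 members were called, and 0 to 1 over single libraries left out, the 1 without CK 3. Without CK 3, 5300 of all tested genes were called higher and 4291 lower. In D vs. CK the count was 33 without the filter and 37 to 40 over single libraries left out. Of all tested genes, 5446 and 3802 to 7500 were called higher in D in these settings. Replicate numbers were not taken to pair the samples. Over genes, deviations from the group means correlated between same-numbered libraries as follows, for replicates 1, 2 and 3. The values were -0.291, 0.058 and -0.0208 for CK and D, and -0.191, -0.0964 and 0.221 for D and D + F. For CK and D + F they were 0.306, 0.0532 and 0.266. Between differently numbered libraries the values ran from -0.280 (D 2 and D + F 3) to 0.324 (D 2 and D + F 1). Within CK and D + F alone, those of unlike numbers ran from -0.276 to 0.0425. A part of the replicate number in the likeness of CK and D + F was not tested. With the replicate block, 40, 0 and 0 members were called in D vs. CK, D + F vs. D and D + F vs. CK. Of all 50626 tested genes, the block called 4771 higher in D vs. CK. It called 0 higher and 1 lower in D + F vs. D, so nearly all calls of that comparison were lost. In D + F vs. CK it called 5989 higher and 5071 lower.

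The limits are the 3 libraries per group, the few read pairs of weak genes in CK and D + F, the uneven D libraries and the missing names. No values for fullerol without drought were analysed here.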
